A study of Homo sapiens with 12 samples.

Results

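The 10 genes described here act in growth arrest and in the G1 phase of the cell cycle, and were read from the FPKM table of 12 RNA-seq libraries as the rows of 10 named genes among 65975 gene identifiers. They encode the CDK inhibitors p21 (CDKN1A), p27 (CDKN1B), p18 (CDKN2C) and p19 (CDKN2D), the stress proteins GADD45A, GADD45B and GADD45G, and the D cyclins CCND1, CCND2 and CCND3. GADD45B was chosen by its value in 1 of the comparisons, being among the largest drops with KDM3A-sh2 in Rh30 cells, so its Rh30 values are a description with no test. The other 9 were chosen by function, with earlier results of these data known. All 10 were found in the table and averaged 1 FPKM or more, the filter used, in every comparison.

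The study depleted KDM3A, a histone H3K9 demethylase, in RD cells, a fusion-negative rhabdomyosarcoma (FN-RMS) line, and in Rh30 cells, a fusion-positive (FP-RMS) line. Both lines were transduced with lentivirus carrying a control non-targeting shRNA (Scramble) or KDM3A-sh2, the single KDM3A-targeting hairpin profiled, and all 4 groups were under puromycin at 1 ug/ml. Each group had 3 libraries by its sample titles. The deposited column names of Rh30 Scramble all end in the same number, 1, where those of the other groups end in 1, 2 and 3. Its replicates are told apart by the titles and by the running number that opens each column name. How close the replicates were depended on the measure. Over genes averaging 10 FPKM or more, the median SD of log2(FPKM + 1) was 0.0762 in Rh30 Scramble, the highest of the groups, beside 0.0695 in RD Scramble, 0.0665 in RD KDM3A-sh2 and 0.0631 in Rh30 KDM3A-sh2. Over genes averaging 1 FPKM or more, Pearson's r between replicates, across genes, was 0.98867 to 0.98881 in Rh30 Scramble and 0.98707 to 0.98869 in the other groups. Of these genes, 250 to 261 had equal values in a pair of Rh30 Scramble replicates and 159 to 202 in other pairs, and nearly all of them were at 0 in both libraries, with 0 to 1 equal above 0 in Rh30 Scramble and 0 to 2 elsewhere. No pair of libraries was a copy, and whether the Rh30 Scramble libraries are as separate as the others cannot be told from these values. RD cells were grown in DMEM and Rh30 cells in RPMI, so line and medium cannot be told apart, and each subtype is represented by a single line. Whether the triplicates were grown as separate cultures is not given in the sources used here, and p-values then cover only the spread among these libraries. FPKM are fragment numbers scaled to exon length and to the mapped total of a library, so the read number itself is hidden. Steps between the smallest FPKM gave a depth, relative to the median library, of 1.05 to 1.16 in RD Scramble, 0.889 to 0.998 in RD KDM3A-sh2, 1.00 to 1.03 in Rh30 Scramble and 0.947 to 0.994 in Rh30 KDM3A-sh2. Depth was thus lower with KDM3A-sh2 in both lines, and its part in the results was not tested. Rhabdomyosarcoma and muscle markers (MYOD1, MYOG, DES, CDH15, CHRNA1 and CHRND) summed to 2222 to 2922 FPKM in every library. Markers of other cells were low. The 5 endothelial markers summed to 2.05 to 4.75 FPKM, mostly TEK, and the 5 blood cell markers to 0.372 to 1.05 FPKM, mostly CD14, with HBB at 0 in all libraries. The 5 epithelial markers summed to 5.29 to 11.9 FPKM, mostly CLDN4 in RD and EPCAM in Rh30, and KRT14 was at 0 in RD and KRT5 in Rh30.

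A D cyclin binds CDK4 or CDK6, and the complex phosphorylates the RB protein, which releases E2F factors and lets the cell enter S phase. The INK4 proteins p18 and p19 bind CDK4 and CDK6 and keep the D cyclin out, whereas the CIP/KIP proteins p21 and p27 bind assembled cyclin-CDK complexes, in particular those of CDK2. The GADD45 proteins are small, inducible by stress and DNA damage, and bind the MAP kinase kinase kinase MAP3K4, PCNA, p21 and the CDK1-cyclin B1 complex. In muscle precursors p21, p27 and p18 are known for holding cells out of the cycle as they differentiate, and CCND3 is the D cyclin retained in differentiating muscle.

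CDKN1A and GADD45G are the genes with a promoter entry that were called in opposite directions in the lines, and GADD45B was chosen for its Rh30 values, so their upstream sequences are shown. The reference held a promoter for 7 of the 10 genes, and GADD45A, CCND1 and CCND2 were not among them. Each sequence is RefSeq sequence of GRCh38.p14 and covers 240 bases, from 250 to 11 bases before the transcription start, 5′ to 3′ on the plus strand. Capitals mark the CCAAT box, the TATAAA box and the ETS core CCGGAA, each searched on both strands, so that the reverse complement is capitalised too. The windows lie at chr19:2475877-2476116 for GADD45B, chr6:36678464-36678703 for CDKN1A and chr9:89604762-89605001 for GADD45G. The GADD45B and GADD45G windows end just before their GENCODE genes, and the CDKN1A window lies inside its gene, which has transcripts that start further upstream.
GADD45B: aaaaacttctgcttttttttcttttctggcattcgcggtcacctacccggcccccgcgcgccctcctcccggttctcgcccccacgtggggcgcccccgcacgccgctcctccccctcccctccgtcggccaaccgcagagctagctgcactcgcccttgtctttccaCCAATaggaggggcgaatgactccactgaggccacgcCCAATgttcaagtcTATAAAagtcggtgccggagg
CDKN1A: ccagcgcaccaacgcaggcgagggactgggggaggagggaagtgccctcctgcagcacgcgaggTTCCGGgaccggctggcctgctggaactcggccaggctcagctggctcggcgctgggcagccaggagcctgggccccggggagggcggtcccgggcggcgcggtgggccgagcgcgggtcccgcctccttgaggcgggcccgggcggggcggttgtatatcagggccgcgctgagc
GADD45G: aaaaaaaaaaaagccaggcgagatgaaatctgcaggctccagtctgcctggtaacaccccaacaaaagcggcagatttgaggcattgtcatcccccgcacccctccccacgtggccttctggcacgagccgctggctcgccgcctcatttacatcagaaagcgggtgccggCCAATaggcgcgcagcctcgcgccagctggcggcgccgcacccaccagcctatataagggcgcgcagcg
The GADD45B window held a TATAAA 31 bases before the start and a CCAAT 82 and 45 bases before it. Of 35116 promoter windows of the same length, 10.6% hold TATAAA and 31.4% hold CCAAT on either strand. The GADD45G window held a CCAAT 79 bases before the start and no TATAAA. Only this exact word was searched, so other spellings of the box, such as tatataag near the end of that window, were not counted. The CDKN1A window held neither CCAAT nor TATAAA, but held an ETS core 186 bases before the start, which 13.5% of windows hold. It also held GGGCGG, the SP1 box, at 4 positions (41.4% of windows hold it), which neither GADD45 window did. None of these 3 windows held TGANTCA, the AP-1 site (6.43% of windows), or CATTCC, the TEAD site (11.5%). They also held none of 4 spellings of the E2F site (2.66% of windows hold any), which were TTTCCCGC first, TTTCGCGC next, TTTGCCGC after it and TTTGGCGC last.

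KDM3A, the target of the hairpin, was measured first. In RD cells it read 35.8, 33.9 and 30.9 FPKM with Scramble, against 12.0, 11.2 and 13.4 FPKM with KDM3A-sh2. In Rh30 cells the values were 27.8, 29.2 and 32.0 FPKM with Scramble, against 13.7, 13.2 and 15.4 FPKM with KDM3A-sh2. The groups did not overlap in either line. KDM3A fell by 1.39 on the log2(FPKM + 1) scale in RD (SE 0.083, adjusted p = 5.00e-05, limma) and by 1.02 in Rh30 (SE 0.079, adjusted p = 0.000348, limma). The difference between the lines passed the threshold (0.37, adjusted p = 0.0388, limma), but the adjusted p missed it in 13 of 21 alternative analyses, where it ranged up to 0.0921. Among these were 8 of the 12 analyses without a single library, all but those without RD Scramble replicate 3, RD KDM3A-sh2 replicate 3, Rh30 Scramble replicate 3 or Rh30 KDM3A-sh2 replicate 2.

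All 4 comparisons were made with limma on genes averaging 1 FPKM or more, with p-values adjusted over every gene tested and called under 0.05. For a single gene in 3 against 3 libraries the smallest exact permutation p is 0.1, and each pair of groups described as not overlapping gave this value where a test was made. RNA from whole cultures was measured, so a lower level in every cell and a lower number of cells expressing the gene cannot be told apart.

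In RD cells 4 of the 10 genes rose with KDM3A-sh2 (GADD45A, CCND3, CCND2 and CDKN1A), 2 fell (GADD45G and CDKN2C), and 4 did not pass the test. Among all 17988 genes tested, 21.6% rose and 19.5% fell. In Rh30 cells, leaving out GADD45B, 2 of 9 genes rose (GADD45G and CDKN2D), 3 fell (CCND1, CDKN1A and CCND2) and 4 did not pass the test. There the shares among all 17803 genes were 15.3% higher and 13.2% lower. Without Rh30 KDM3A-sh2 replicate 1 the higher calls over all genes went from 2719 to 1621 and the lower ones from 2347 to 1594. Taken without sign, the log2 fold changes of the members tested had a median of 0.28 in RD and 0.24 in Rh30, beside 0.22 and 0.18 over all genes tested. CDKN1A and CCND2 thus rose in RD and fell in Rh30, and GADD45G fell in RD and rose in Rh30. Of 15970 genes tested in both lines, 16.9% were called in both and 3.58% were called in opposite directions, which is 571 of the 2704 called in both.

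**Figure D1:**
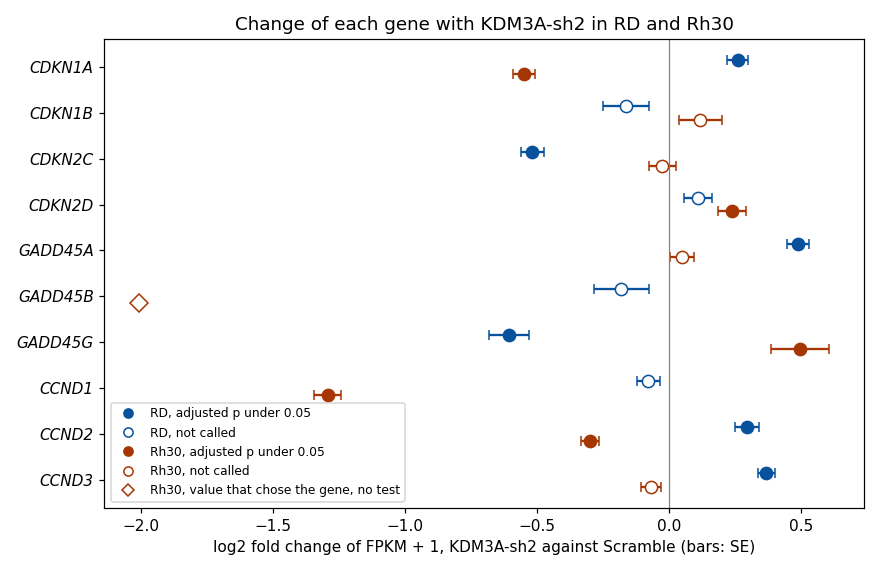
Log2 fold change of FPKM + 1 (x axis) of each of the 10 genes with KDM3A-sh2 against Scramble in RD (blue) and Rh30 (brown), with standard errors as bars. Filled points passed an adjusted p of 0.05, open points did not, and the diamond is the value that chose GADD45B; CDKN1A and CCND2 lie to the right of 0 in RD and to the left in Rh30, and GADD45G the other way round.

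Among the CIP/KIP inhibitors, CDKN1A (ENSG00000124762, chr6:36676460-36687339, plus strand), whose product p21 inhibits CDK2 complexes, moved in opposite directions in the lines. In RD cells it stood at 39.4, 40.5 and 41.7 FPKM with Scramble, against 49.2, 48.3 and 48.5 FPKM with KDM3A-sh2. Every KDM3A-sh2 library was above every Scramble library, a 1.20-fold rise of the mean (log2 fold change 0.26, SE 0.040, adjusted p = 0.00239, limma). In Rh30 cells it stood at 97.9, 104 and 96.6 FPKM with Scramble, against 67.6, 68.9 and 66.3 FPKM with KDM3A-sh2. All 3 Rh30 KDM3A-sh2 libraries were lower than all Scramble libraries, and the mean was 1.47-fold lower (log2 fold change -0.55, SE 0.042, adjusted p = 0.000346, limma). The order of the 4 groups ran from Rh30 Scramble (99.5 FPKM) through Rh30 KDM3A-sh2 (67.6 FPKM) and RD KDM3A-sh2 (48.7 FPKM) to RD Scramble (40.5 FPKM), and no neighbours in it overlapped.

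CDKN1B (ENSG00000111276, chr12:12715058-12722371, plus strand), whose product p27 is controlled mainly through its breakdown, did not pass the test in either line. It read 26.9, 22.8 and 23.0 FPKM in RD Scramble and 21.6, 23.4 and 19.7 FPKM in RD KDM3A-sh2 (log2 fold change -0.16, SE 0.088, adjusted p = 0.183, limma). In Rh30 the values were 24.7, 24.1 and 24.3 FPKM with Scramble, against 30.1, 24.2 and 25.5 FPKM with KDM3A-sh2 (a log2 difference of 0.12, SE 0.081, adjusted p = 0.326, limma). All neighbours in the order of its group means overlapped, and those means ran from 21.5 to 26.6 FPKM.

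Of the INK4 genes, CDKN2C (ENSG00000123080, chr1:50960745-50974633, plus strand) fell in RD. Its values there were 53.5, 50.6 and 51.0 FPKM with Scramble, against 34.6, 36.4 and 36.2 FPKM with KDM3A-sh2. The groups stood apart, and the mean was 1.45-fold lower (log2 fold change -0.52, SE 0.044, adjusted p = 0.000188, limma). In Rh30 it read 63.5, 62.8 and 65.3 FPKM with Scramble, against 64.4, 65.1 and 58.6 FPKM with KDM3A-sh2. These groups overlapped (log2 fold change -0.03, SE 0.051, adjusted p = 0.723, limma).

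CDKN2D (ENSG00000129355, chr19:10566462-10569059, minus strand) rose in Rh30 by a small step. It read 28.2, 27.9 and 25.9 FPKM with Scramble, against 33.4, 32.5 and 31.1 FPKM with KDM3A-sh2, with no overlap (1.18-fold, log2 fold change 0.24, SE 0.054, adjusted p = 0.0191, limma). The call did not hold without Rh30 KDM3A-sh2 replicate 1 (adjusted p = 0.0694, limma) or replicate 2 (adjusted p = 0.0606, limma). In RD the values were 33.9, 37.2 and 34.1 FPKM with Scramble, against 36.9, 37.9 and 38.8 FPKM with KDM3A-sh2, which overlapped and did not pass the test (log2 fold change 0.11, SE 0.052, adjusted p = 0.137, limma). As a share of the summed FPKM of the INK4 pair, CDKN2D made up 40.4% in RD Scramble, 51.4% in RD KDM3A-sh2, 30.0% in Rh30 Scramble and 34.0% in Rh30 KDM3A-sh2.

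**Figure D2:**
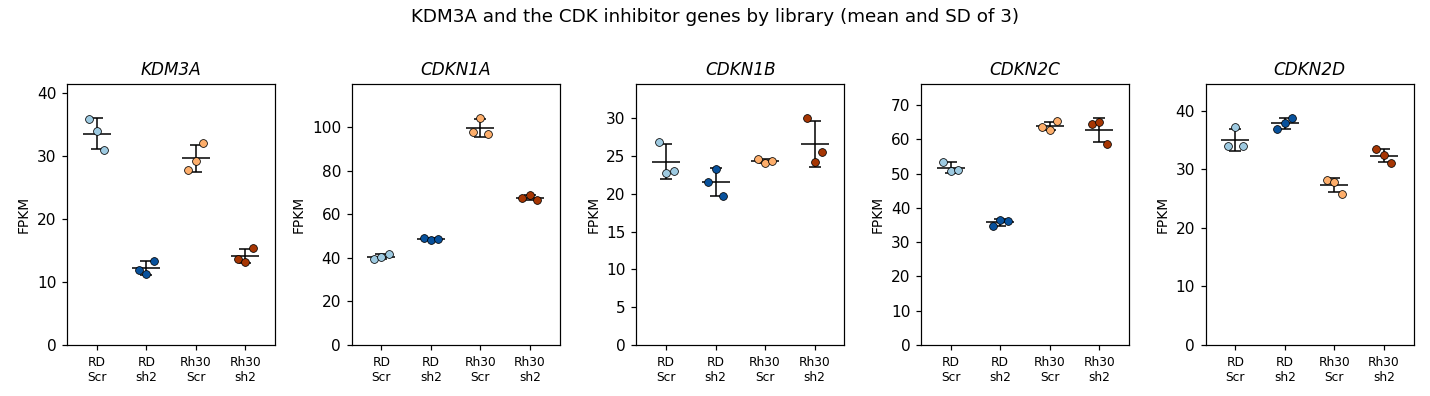
FPKM (y axis, from 0) of KDM3A and of the 4 CDK inhibitor genes in each library of RD and Rh30 with Scramble (Scr) and KDM3A-sh2 (sh2). Points are libraries and bars are the mean and SD of 3; CDKN1A lies between 66.3 and 104 FPKM in Rh30 and between 39.4 and 49.2 FPKM in RD, and for CDKN2C the RD KDM3A-sh2 libraries are the lowest (34.6 to 36.4 FPKM).

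GADD45B (ENSG00000099860, chr19:2476122-2478259, plus strand), a stress-inducible regulator of p38 and JNK signaling, was the member with the largest difference between KDM3A-sh2 and Scramble. In Rh30 cells it was at 20.8, 23.9 and 19.2 FPKM with Scramble, against 4.93, 4.68 and 4.01 FPKM with KDM3A-sh2. All 3 KDM3A-sh2 libraries lay far below the Scramble libraries, with means of 21.3 ± 2.40 and 4.54 ± 0.474 FPKM (SD, n = 3 each), a 4.70-fold difference and -2.01 on the log2(FPKM + 1) scale. These values chose the gene. The drop was ranked among 1871 genes that were called lower in Rh30, without overlap of the groups, and averaged 10 FPKM or more. Only NKAIN4 (-2.80) and TNNC1 (-2.08) had lower log2 fold changes there, and OSTM1 (-1.95) came next after GADD45B. The call was a condition of this ranking and is no test of GADD45B.

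In RD cells, which took no part in that choice, GADD45B was at 19.0, 22.6 and 23.2 FPKM with Scramble, against 17.5, 17.9 and 21.4 FPKM with KDM3A-sh2. The groups overlapped and the difference did not pass the test (log2 fold change -0.18, SE 0.10, adjusted p = 0.204, limma). Its means in RD Scramble (21.6 FPKM), Rh30 Scramble (21.3 FPKM) and RD KDM3A-sh2 (18.9 FPKM) overlapped with their neighbours in the order, and Rh30 KDM3A-sh2 stood apart. Over the 12 libraries, the genes with the most similar pattern among 9325 protein-coding genes averaging 10 FPKM or more were FILIP1L (Pearson's r = 0.99), FLNC (0.97), JAM3 (0.97), ANKRD1 (0.97) and AMOTL2 (0.97). FILIP1L, for example, had means of 21.0 and 18.1 FPKM in RD and of 19.7 and 7.31 FPKM in Rh30, with Scramble and KDM3A-sh2. These correlations run over 4 groups of 3 libraries that share line and hairpin. They rest largely on the Rh30 KDM3A-sh2 values that chose GADD45B, so genes that were low in those libraries were bound to rank high.

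GADD45A (ENSG00000116717, chr1:67685061-67688338, plus strand), a family member induced by DNA damage, rose in RD. It read 62.7, 66.0 and 64.4 FPKM with Scramble, against 88.4, 94.1 and 89.2 FPKM with KDM3A-sh2. The groups stood well apart, a 1.41-fold rise of the mean (log2 fold change 0.49, SE 0.041, adjusted p = 0.000188, limma). In Rh30 it read 93.8, 92.5 and 100.3 FPKM with Scramble, against 99.96, 100.7 and 95.6 FPKM with KDM3A-sh2, which overlapped (log2 fold change 0.05, SE 0.045, adjusted p = 0.468, limma). RD KDM3A-sh2 (90.6 FPKM) overlapped with Rh30 Scramble (95.5 FPKM), and RD Scramble (64.3 FPKM) alone stood apart from its neighbour.

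GADD45G (ENSG00000130222, chr9:89605013-89606555, plus strand), the least abundant of the 3 in RD, moved in opposite directions. In RD it read 12.4, 12.3 and 11.8 FPKM with Scramble, against 7.49, 7.09 and 8.36 FPKM with KDM3A-sh2. Every KDM3A-sh2 library was lower, by 1.59-fold at the mean (log2 fold change -0.61, SE 0.076, adjusted p = 0.000956, limma). In Rh30 it read 31.3, 29.7 and 23.3 FPKM with Scramble, against 42.4, 38.9 and 37.8 FPKM with KDM3A-sh2. The groups did not overlap, and the mean was 1.41-fold higher (log2 fold change 0.49, SE 0.11, adjusted p = 0.0183, limma). Scramble replicate 3 was the lowest library, and without it the log2 fold change was 0.37 (adjusted p = 0.0146, limma). The Rh30 call did not hold without KDM3A-sh2 replicate 1 (adjusted p = 0.0625, limma), with no filter on low values (adjusted p = 0.0548, limma) or in linear models without limma's shared spread (adjusted p = 0.0608 on unlogged FPKM and 0.0789 on the log2 scale).

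The summed FPKM of the 3 GADD45 genes was 98.1 ± 3.54 in RD Scramble and 117 ± 3.19 in RD KDM3A-sh2 (SD, n = 3 each). The Rh30 sum was 145 ± 1.82 with Scramble and 143 ± 5.06 with KDM3A-sh2 (SD, n = 3 each). In Rh30 the sum overlapped between the groups, as did the share of GADD45A in it (63.3 to 70.3% with Scramble, 67.9 to 69.8% with KDM3A-sh2). The Rh30 sum includes the drop that chose GADD45B, so its overlap and the shares of it are a description only. The share of GADD45G did not overlap, at means of 19.4% and 27.8%, and that of GADD45B, the gene chosen by these values, was 14.7% and 3.17%. In RD, GADD45A went from 65.6% to 77.3% of the sum and GADD45G from 12.4% to 6.53%.

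**Figure D3:**
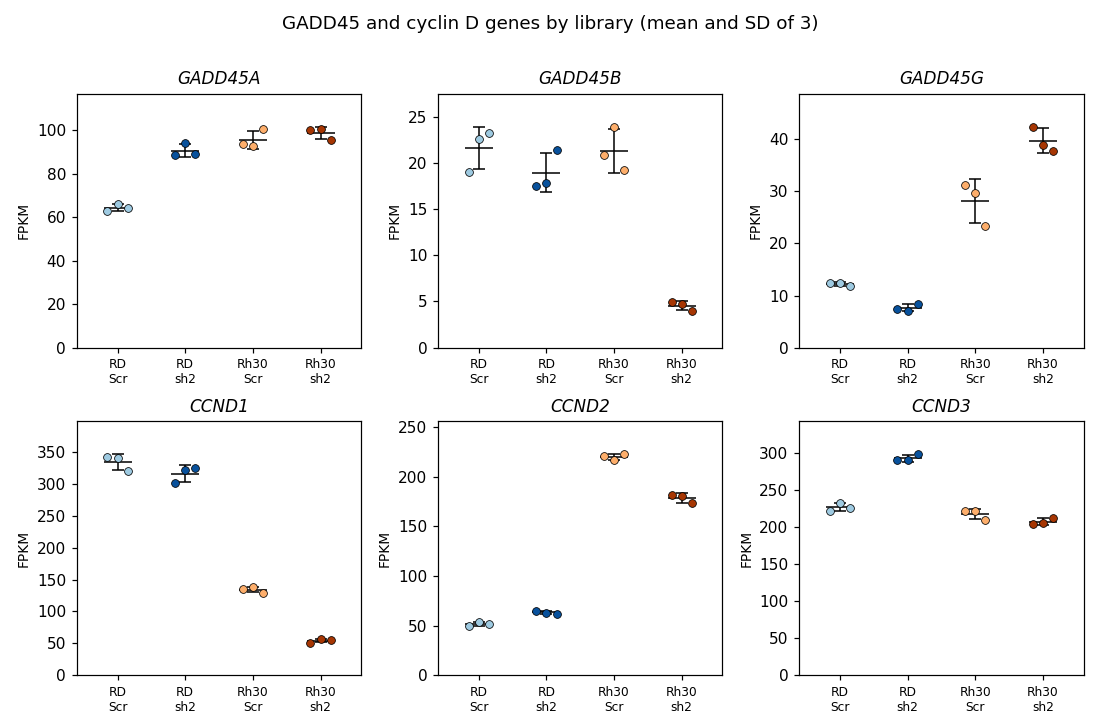
FPKM (y axis, from 0) of the 3 GADD45 genes and the 3 cyclin D genes in each library of RD and Rh30 with Scramble (Scr) and KDM3A-sh2 (sh2), with the mean and SD of 3 as bars. The 3 Rh30 KDM3A-sh2 libraries are the lowest of all for GADD45B (4.01 to 4.93 FPKM) and CCND1 (50.8 to 56.2 FPKM).

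CCND1 (ENSG00000110092, chr11:69641087-69654474, plus strand) had the largest tested change of the 9 genes in Rh30. It read 134.9, 137.8 and 129.5 FPKM with Scramble, against 50.8, 56.2 and 55.4 FPKM with KDM3A-sh2. No library of 1 group came near the other, and the mean was 2.48-fold lower (log2 fold change -1.29, SE 0.051, adjusted p = 5.41e-05, limma). In RD, where it was the most abundant D cyclin, it read 343.5, 340.5 and 320.5 FPKM with Scramble, against 301.6, 323.1 and 325.9 FPKM with KDM3A-sh2. These groups overlapped and did not pass the test (log2 fold change -0.08, SE 0.044, adjusted p = 0.194, limma). LTO1 overlaps CCND1 on the opposite strand, and its mean was 27.7 to 32.6 FPKM in the 4 groups. The libraries were directional, but the strand setting of the authors' quantification is not given in the sources used here.

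The genes closest to CCND1 over the 12 libraries were GFRA1, C8orf58, ALPK2, ITGA3 and ITGB3, with Pearson's r of 0.99 to 1.00. GFRA1, a receptor for GDNF, had means of 76.0 and 73.9 FPKM in RD and of 23.2 and 7.61 FPKM in Rh30, with Scramble and KDM3A-sh2. ITGB3, an integrin subunit, had means of 34.9 and 31.2 FPKM in RD and of 10.5 and 4.39 FPKM in Rh30. The group means of all 5 were higher in RD than in Rh30, as were those of CCND1. The 5 were picked by correlation over these same libraries, so this likeness follows from the choice, and shared regulation was not tested.

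CCND2 (ENSG00000118971, chr12:4273772-4305350, plus strand) moved by about the same size in opposite directions. In RD it read 49.1, 53.7 and 51.4 FPKM with Scramble, against 64.6, 63.0 and 62.0 FPKM with KDM3A-sh2. It was higher in every KDM3A-sh2 library, 1.23-fold at the mean (log2 fold change 0.29, SE 0.046, adjusted p = 0.00245, limma). In Rh30 it read 220.7, 217.0 and 222.7 FPKM with Scramble, against 181.9, 180.8 and 173.4 FPKM with KDM3A-sh2. Here it was lower in every KDM3A-sh2 library, also 1.23-fold at the mean (log2 fold change -0.30, SE 0.033, adjusted p = 0.00135, limma). Its group means did not overlap anywhere in their order, and the copy CCND2P1 was at 0.984 to 3.71 FPKM in the 4 groups.

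CCND3 (ENSG00000112576, chr6:41934933-42050357, minus strand) rose in RD, from 222.2, 233.2 and 226.8 FPKM with Scramble to 290.9, 291.0 and 299.0 FPKM with KDM3A-sh2. The groups stood apart, a 1.29-fold rise of the mean (log2 fold change 0.37, SE 0.032, adjusted p = 0.000214, limma). In Rh30 it read 221.9, 222.6 and 209.9 FPKM with Scramble, against 203.9, 206.5 and 212.7 FPKM with KDM3A-sh2. These overlapped and did not pass the test (log2 fold change -0.07, SE 0.037, adjusted p = 0.203, limma). The copy CCND3P1 was at 5.27 to 8.63 FPKM, and reads shared with these copies cannot be separated in FPKM.

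Together the 3 cyclin D genes summed to 614 ± 14.4 FPKM in RD Scramble and 674 ± 15.2 FPKM in RD KDM3A-sh2 (SD, n = 3 each). The Rh30 sum was 572 ± 8.90 FPKM with Scramble, against 441 ± 3.55 FPKM with KDM3A-sh2 (SD, n = 3 each). The Scramble groups of the lines thus differed little in the sum but much in its parts: CCND1 was 54.6% of it in RD and 23.4% in Rh30, and CCND2 8.37% and 38.5%. With KDM3A-sh2, CCND1 made up 47.0% in RD and 12.3% in Rh30, and CCND3 was then the largest part in Rh30 (47.1%).

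**Figure D4:**
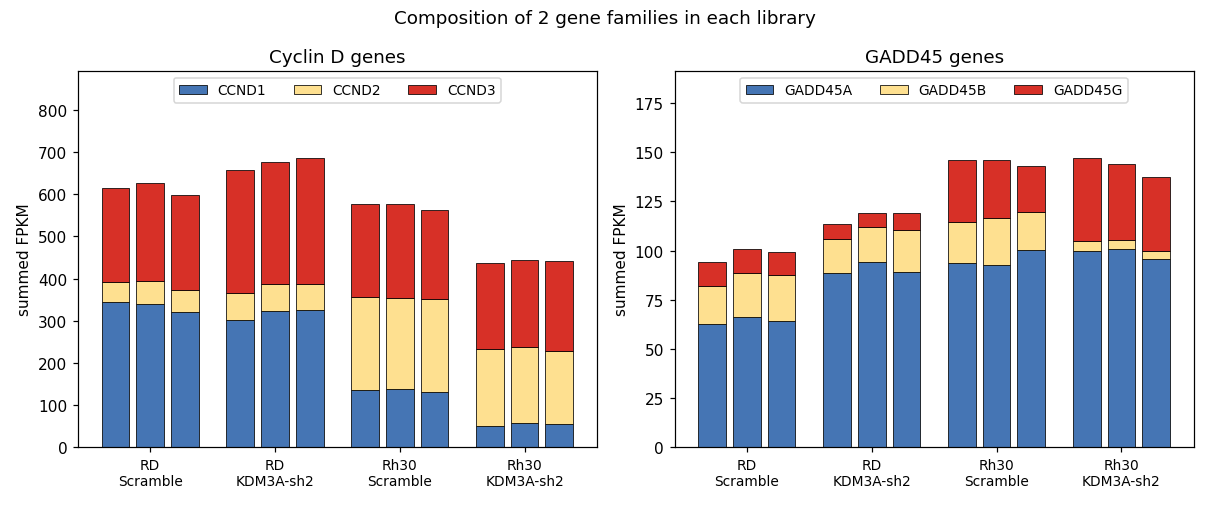
Summed FPKM (y axis, from 0) of the cyclin D genes (left) and the GADD45 genes (right) in each of the 12 libraries, stacked by gene. The cyclin D sum is lower in the 3 Rh30 KDM3A-sh2 libraries (437 to 443 FPKM) than in Rh30 Scramble (562 to 577 FPKM). The GADD45 sums of these groups overlap, and they include the drop that chose GADD45B.

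Whether the change with KDM3A-sh2 differed between the lines was tested over all 12 libraries as the interaction of shRNA and line. Of 9 genes, leaving out GADD45B, 5 had a lower change in Rh30 than in RD, 2 a higher one and 2 did not pass the test. Over all 18517 genes tested, 14.4% were higher and 13.4% lower. Higher differences made up 51.7% of all calls, and 40.6% once all libraries were scaled to an equal sum. CCND1 had a difference of -1.21 (SE 0.068, adjusted p = 9.99e-07, limma) and CDKN1A one of -0.81 (SE 0.053, adjusted p = 2.44e-06, limma). CCND2, CCND3 and GADD45A followed at -0.59, -0.44 and -0.44. GADD45G differed by 1.103 (SE 0.14, adjusted p = 0.000212, limma) and CDKN2C by 0.49 (SE 0.064, adjusted p = 0.000261, limma). CDKN1B (0.28, SE 0.13, adjusted p = 0.127, limma) and CDKN2D (0.13, SE 0.071, adjusted p = 0.217, limma) did not pass the test. The value of GADD45B was -1.83, with no test.

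Between the Scramble groups, CCND2, CDKN1A, GADD45G, GADD45A and CDKN2C were higher in Rh30 and CCND1 and CDKN2D lower. That is 5 of 9 genes higher and 2 lower, where 35.0% of all 18357 genes tested were higher and 39.6% lower. CCND2 was 4.28-fold higher in Rh30 (log2 fold change 2.08, SE 0.043, adjusted p = 4.21e-08, limma) and CCND1 2.50-fold lower (log2 fold change -1.31, SE 0.042, adjusted p = 2.74e-07, limma). CDKN1A was 2.46-fold, GADD45G 2.31-fold, GADD45A 1.48-fold and CDKN2C 1.23-fold higher in Rh30 Scramble, and CDKN2D was 1.28-fold lower. CDKN1B (log2 fold change 0.01, adjusted p = 0.913, limma) and CCND3 (log2 fold change -0.06, adjusted p = 0.194, limma) did not pass the test, and GADD45B had similar values (-0.02, no test). Rescaling each library to the same sum moved the median of all genes from -0.04 to -0.14, and CCND3 was then called lower in Rh30 (log2 fold change -0.17, adjusted p = 0.00338, limma).

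The partners of these genes were read from lists, whose counts stand beside the shares of all genes tested, 21.6% higher and 19.5% lower in RD and 15.3% higher and 13.2% lower in Rh30. All 8 proliferation markers fell in RD, among them TOP2A, a DNA topoisomerase of dividing cells (from 159 ± 5.03 to 70.8 ± 4.00 FPKM, SD, n = 3 each), and the S and G2 phase cyclin CCNA2 (from 58.8 ± 0.648 to 28.0 ± 0.684 FPKM, SD, n = 3 each). Their summed level was 992 to 1013 FPKM in RD Scramble and 521 to 546 FPKM in RD KDM3A-sh2. The Rh30 libraries held 1609 to 1614 FPKM and 1505 to 1544 FPKM, and 2 of the 8 fell, BUB1 (log2 fold change -0.28, adjusted p = 0.00197, limma) and TOP2A (-0.23, adjusted p = 0.0149, limma). The median log2 fold change of the list was -0.97 in RD and -0.08 in Rh30, beside 0.01 and 0.03 over all genes, and the interaction passed the test in all 8. These markers fell in the same RD libraries in which 6 members changed, and the part of proliferation in the members' changes was not tested.

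Among 22 G1 kinases, RB family members and E2F factors, 11 fell and 4 rose in RD, and 4 fell and 4 rose in Rh30, where these counts are near the shares of all genes. The median log2 fold change was -0.15 in RD and -0.04 in Rh30. In RD the largest drops of well-expressed genes were those of CCNE2, a cyclin of the G1 to S step (log2 fold change -0.93, adjusted p = 0.000104, limma), and CCNH, a subunit of the CDK-activating kinase (-0.81, adjusted p = 0.000347, limma). CCNH also fell in Rh30 (-0.70, adjusted p = 0.000572, limma), as did RB1 (-0.37, adjusted p = 0.0263, limma). RBL2 (0.33) and CDK7 (0.27) rose most in RD, and the repressor-type factors E2F6 (0.30) and E2F8 (0.28) in Rh30. The interaction test between the lines was not passed by RBL2, CDK7 and RB1 (adjusted p = 0.470, 0.394 and 0.0990, limma). CCNE2, E2F6 and E2F8 passed it (adjusted p = 1.43e-05, 0.00736 and 0.000364, limma).

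CDK4, the kinase partner of the D cyclins, was at 655 ± 29.2 FPKM in RD Scramble and 14661 ± 479 FPKM in Rh30 Scramble (SD, n = 3 each), 22.4-fold higher on the log2(FPKM + 1) scale (adjusted p = 4.68e-09, limma). It did not pass the test with KDM3A-sh2 in either line (log2 fold change -0.03 with adjusted p = 0.638 in RD, -0.07 with adjusted p = 0.185 in Rh30, limma). CDK6 was at 128 ± 11.1 FPKM in RD Scramble and fell in Rh30 from 80.3 ± 3.18 to 68.1 ± 2.37 FPKM (SD, n = 3 each; log2 fold change -0.24, adjusted p = 0.0117, limma).

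The other CDK inhibitor genes were 4. CDKN2B, an INK4 gene, rose in RD from 25.9 ± 1.96 to 49.7 ± 1.25 FPKM (SD, n = 3 each; log2 fold change 0.92, adjusted p = 8.45e-05, limma), while CDKN1C, of the CIP/KIP family (-0.72, adjusted p = 0.000731, limma), and CDKN3, a CDK phosphatase (-0.63, adjusted p = 0.000795, limma), fell. In Rh30 limma called 0 of the 3 tested, and 0 had an unadjusted p under 0.05. CDKN1C, at 0.265 and 0.356 FPKM there, was below the filter. CDKN2A, which encodes p16 and ARF, was the most abundant CDK inhibitor gene in all 4 groups (189 to 242 FPKM) and did not pass the test in RD (-0.06, adjusted p = 0.453, limma) or Rh30 (-0.07, adjusted p = 0.234, limma).

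Of 23 DNA damage response genes, 8 rose and 4 fell in RD. In Rh30, 7 of 22 rose and 5 fell. The median log2 fold changes were 0.02 and 0.05, beside 0.01 and 0.03 over all genes. GDF15, a secreted stress factor, moved as CDKN1A did, up in RD from 8.81 ± 0.549 to 41.9 ± 3.07 FPKM (SD, n = 3 each; log2 fold change 2.13, adjusted p = 1.24e-05, limma) and down in Rh30 from 26.6 ± 2.19 to 16.3 ± 0.296 FPKM (SD, n = 3 each; -0.67, adjusted p = 0.000939, limma). MDM2, a ubiquitin ligase, rose in both lines (RD 0.71 with adjusted p = 0.00434, Rh30 0.74 with adjusted p = 0.00823, limma), and CCNG1 fell in both (-0.997, adjusted p = 0.000269, and -0.78, adjusted p = 0.000232, limma). ZMAT3 (0.74) rose and DDB2 (-0.51) fell in RD.

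The partners of the GADD45 proteins and the MAP kinases numbered 16. In RD 4 rose and 6 fell, and in Rh30 4 of 14 rose and 0 fell in limma, where 5 and 1 had an unadjusted p under 0.05. The CDK1-cyclin B1 pair, which GADD45 proteins bind, fell in RD, CCNB1 from 258 ± 3.62 to 134 ± 5.59 FPKM and CDK1 from 77.0 ± 3.05 to 39.2 ± 1.5 FPKM (SD, n = 3 each; adjusted p = 1.62e-05 and 2.83e-05, limma). Of the kinases upstream of p38 and JNK, MAP2K3 (0.72) and MAP2K7 (0.66) rose in RD, and MAP2K7 (0.58) and MAP2K4 (0.36) in Rh30. Only the largest rises of each line are named, and MAP2K4 did not pass the interaction test between the lines (-0.08, adjusted p = 0.505, limma). Of 12 genes for the turnover of CDK inhibitors and D cyclins, 4 fell and 1 rose in RD, and 2 fell and 0 rose in Rh30, where 3 and 2 had an unadjusted p under 0.05. The Rh30 counts of these lists are a few genes each, and nothing is read from them against the shares of all genes. CUL4A, a ubiquitin ligase scaffold, fell in both (-0.63, adjusted p = 0.00126, and -0.31, adjusted p = 0.0190, limma). DTL (-0.56), its adaptor for p21, fell and AMBRA1 (0.16), the adaptor for the D cyclins, rose in RD, and SKP2 (-0.20), the adaptor for p27, fell in Rh30. DTL passed the interaction test between the lines (0.63, adjusted p = 0.000206, limma). AMBRA1 (-0.06, adjusted p = 0.616, limma) and SKP2 (-0.12, adjusted p = 0.196, limma) did not.

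**Figure D5:**
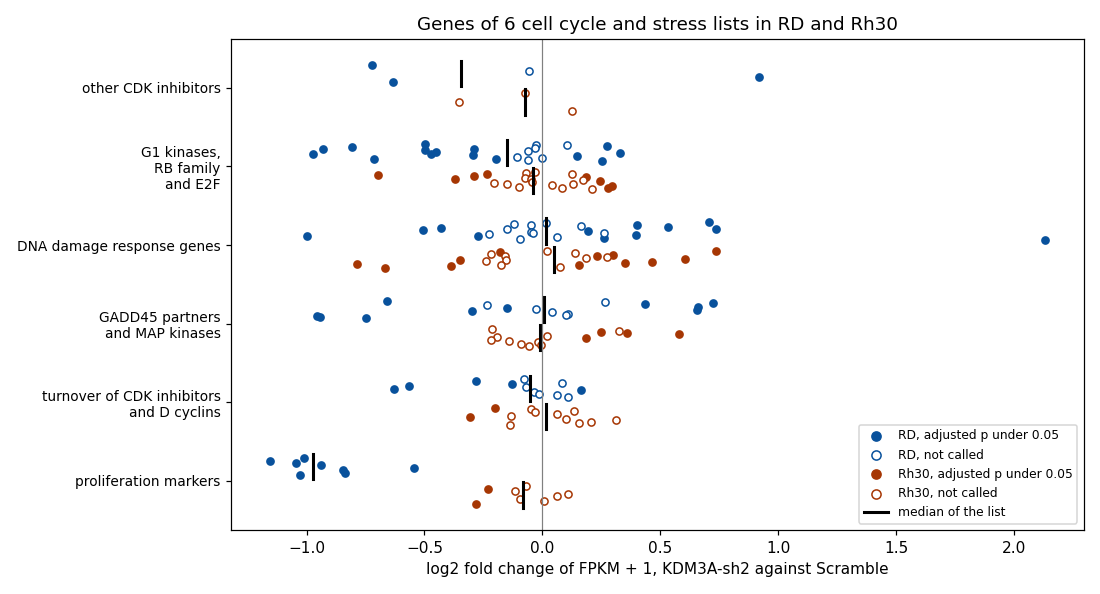
Log2 fold change of FPKM + 1 (x axis) of each tested gene in 6 lists (y axis), with KDM3A-sh2 against Scramble in RD (blue) and Rh30 (brown). Filled points passed an adjusted p of 0.05 and black bars are medians; the 8 proliferation markers all lie below 0 in RD (median -0.97) and around 0 in Rh30 (median -0.08).

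Of the 6 muscle markers, 3 rose and 3 fell in RD, and 2 rose and 3 fell in Rh30. The median log2 fold change of the 6 was 0.05 in RD and -0.18 in Rh30, while their summed FPKM was higher with KDM3A-sh2 in both lines. In RD, CHRND (0.51) and CHRNA1 (0.42), subunits of the muscle acetylcholine receptor, rose while CDH15 (-0.60) and MYOD1 (-0.24) fell. In Rh30 the directions were the other way round for the receptor genes, CHRND (-0.69) and CHRNA1 (-0.64) falling, while the muscle transcription factors MYOG (0.56) and MYOD1 (0.28) rose. Summed marker levels were 2222 to 2451 and 2776 to 2899 FPKM in RD, and 2549 to 2828 and 2892 to 2922 FPKM in Rh30, with Scramble and KDM3A-sh2. The part of differentiation in the members' changes was not tested.

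CDKN1A and CCND2 were also set beside the genes of most similar pattern over the 12 libraries. For CDKN1A these were PPP1R14B, CASP9, EIF1, PODXL and APBB2 (Pearson's r of 0.98 to 1.00). CASP9, an initiator caspase, had means of 21.3 and 24.3 FPKM in RD and of 45.7 and 34.5 FPKM in Rh30, with Scramble and KDM3A-sh2. The genes nearest to CCND2 were SDPR, ADAM10, VASH2, TSPAN18 and ALDH1A3 (r of 1.00 each). ADAM10, a membrane protease, had means of 74.5 and 83.9 FPKM in RD and of 300 and 234 FPKM in Rh30. All these genes were picked by correlation over the same 12 libraries, which share line and hairpin within groups. A similar order of group means thus follows from the choice, and shared regulation was not tested.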

How the data were processed

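RNA was sequenced from RD and Rh30 cells with Scramble or KDM3A-sh2, 3 libraries per group. The authors aligned reads to GRCh38 with GSNAP and computed FPKM per gene with Cufflinks, and the deposited FPKM table was used as given. The read length is 50 bases in the paper's methods and longer in the labels. The annotation release and strand setting are not given in the sources used here. Of 66095 entries, 120 repeats of an identifier were left out, and in 17 genes a placeholder was treated as missing.

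KDM3A-sh2 and Scramble were compared in each line, the Scramble groups between lines, and the interaction over all libraries, with limma 3.58.1 in R 4.3.3 (lmFit, eBayes with a trend) on log2(FPKM + 1), genes averaging 1 FPKM or more, two-sided, Benjamini-Hochberg over all genes tested, threshold 0.05. The pseudocount makes fold changes of low genes smaller, while folds of means are on plain FPKM. FPKM hide read depth, and no interval for counting was possible. The fits were tested on simulated data with independent normal errors, which cannot show effects of dependence among libraries, of depth or of scaling. Tables and figures used Python 3.11.15, pandas 2.3.3, NumPy 2.4.6 and matplotlib 3.10.9. Positions are from GENCODE 29, promoters from RefSeq.

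The members and lists were chosen with earlier results of these data known. Named were the members, KDM3A, 7 genes whatever their values (CDK4, CDK6, RB1, MDM2, CDKN1C, CDKN2A and CDKN2B), in each list and line up to 2 called genes with the largest rise and drop at a mean of at least 5 FPKM, and the 5 genes most alike to 4 members. Alternatives were a pseudocount of 0.1, no filter, a filter of 10 FPKM in a library, the same sum per library, median-of-ratios scaling, linear models without shared spread, a further 1.5-fold change, a replicate block and leaving out each library. Items that the rule also names are not reported here, 1 of them left out of its list.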

Additional observations from a re-analysis of the deposited data

Results flagged for a closer look

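The change with KDM3A-sh2 differed between Rh30 and RD by the interaction test (limma, adjusted p under 0.05) in 7 of 9 members and in KDM3A, where 14.4% of all 18517 genes were higher and 13.4% lower. On the log2(FPKM + 1) scale the Rh30 change minus the RD change was -1.21 for CCND1, -0.81 for CDKN1A, -0.59 for CCND2, -0.44 for CCND3, -0.44 for GADD45A, 0.49 for CDKN2C and 1.103 for GADD45G. For KDM3A it was 0.37, with an adjusted p that missed the threshold in 13 of 21 alternative analyses. Of the members, 3 were called in both lines, and their changes had opposite signs there: CDKN1A and CCND2 rose in RD and fell in Rh30, and GADD45G did the reverse. Over all 15970 genes tested in both lines, 3.58% were called in opposite directions. The adjusted p of GADD45G in Rh30 missed the threshold in 4 of 15 alternative analyses. The lines also differ in medium, in depth between the groups and in the proliferation markers, and the part of these was not tested.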

How the results depend on the processing

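Single tested values for members and KDM3A were recomputed 675 times, and 632 kept their direction and side of the threshold. The GADD45B values that were not tested are not among them. Requiring a further 1.5-fold change left 0 members higher and 1 lower in RD, 0 and 1 in Rh30, 1 and 3 for the interaction, and 3 and 1 for Rh30 Scramble against RD Scramble. The share of all genes under this requirement was not computed, so whether the members lost more calls than other genes cannot be told. The number of members higher in Rh30 was 1 with no filter on low values, in the linear model of unlogged FPKM and in that without shared spread, and 0 to 2 when single libraries were left out. All other counts of members stayed within 1.5 times. Over all genes, the higher calls in Rh30 went from 2719 to 1621 without Rh30 KDM3A-sh2 replicate 1 and to 1759 without replicate 2. Values near 0 changed sign for 3 members. CDKN2C in Rh30 ran from -0.0544 to 0.0197 over the left-out libraries. Rh30 Scramble against RD Scramble, CDKN1B was -0.0969 with the same sum and ran from -0.0308 to 0.0836 over the left-out libraries, and GADD45B was 0.0151 with median-of-ratios scaling and ran from -0.105 to 0.0501. Replicate numbers did not pair libraries: the correlations of same-numbered deviations were -0.08, 0.03 and -0.14 in RD and 0.04, -0.04 and -0.12 in Rh30, and not every library correlated best with its own number. With the replicate block 4 members were higher and 2 lower in RD, 2 and 3 in Rh30, 2 and 5 for the interaction and 5 and 2 between the Scramble groups. Over all 17803 genes higher calls in Rh30 went from 2719 to 1798 and lower ones from 2347 to 1623. In RD those over all 17988 genes went from 3879 to 3282 and from 3511 to 2977. For the interaction those over all 18517 genes went from 2665 to 2081 and from 2486 to 1912. The block changed 1 call among the single values, that of the KDM3A interaction (adjusted p = 0.0641, limma). Leaving out a library leaves 2 in its group. Depth limits low genes, and only relative depth could be read from FPKM.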
